A study of Mus musculus with 4 samples.

Results

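The expression of 10 genes of tissue macrophages was compared between the septal nasal mucosa of young adult and aged mice. The genes were *Adgre1*, *Aif1*, *Csf1r*, *Cd68*, *Mrc1*, *Cd163*, *Lyve1*, *Fcgr1*, *Mertk* and *Trem2*. They were found on the arrays through the accession of each probe that is not a control, which gave 14 of the 56605 probes and 10 of the 45604 genes tested. The mice were C57BL/6J with no stated mutation or treatment, aged 8 weeks (young adult) or 16 months (aged), and the design text calls them male. The mucosa was frozen whole, without sorting of cells, and each of the 4 one-color Agilent arrays (2 per age) carried RNA pooled from 5 mice. By the study's methods the mice for gene analyses are too few for separate pools, and any sharing of mice between the pools of an age is not described, so the spread between arrays may be partly technical, and the label field that mentions silica and lung fits neither the titles nor the tissue. All 10 macrophage genes had a probe well above background on all 4 arrays. The 8 marker genes of mature olfactory neurons were also detected on all 4 arrays, as the labelled tissue requires. All 8 had higher values on both aged arrays than on both young adult arrays, as was the case for 24.2% of all genes. Only 1 of the 8 passed the limits on P and FDR given below. *Xist* was well above background on all 4 arrays while *Ddx3y*, *Kdm5d*, *Eif2s3y* and *Uty* were not on any array, which goes against the stated sex in both ages alike.

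Tissue macrophages are resident phagocytes that engulf dying cells, debris and microbes. In the olfactory mucosa, where neurons are shed and replaced throughout life, they lie in the lamina propria and among the epithelial cells and clear dying olfactory neurons. Their survival depends on the receptor CSF1R, and their surface carries scavenger, Fc and apoptotic-cell receptors through which material is taken up and passed to lysosomes.

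Expression of the macrophage genes was mostly lower in the aged mucosa. *Aif1*, *Cd68*, *Mrc1* and *Trem2* fell, each by between 36.1 and 43.3% of its young adult level. A gene was called changed at P below 0.05 and an FDR below 0.25 in limma, with the FDR taken over all genes tested. By this rule 4 of the 10 genes were lower and 0 were higher, against 2.33% of all genes called lower and 1.65% called higher. The same 4 genes also had a mean intensity of at least 100 and a fold change of at least 1.5. Of the 10 genes, 9 had a lower mean in aged mice, and in 8 the higher of the aged arrays was still under the lower of the young adult arrays, as was the case for 21.8% of all genes. In 0 of the 10 were both aged arrays the higher ones, against 24.2% of all genes. The median log2 fold change, aged over young adult, was -0.57 over the 10 genes and 0.0093 over all genes. In RNA of whole mucosa, fewer macrophages and less RNA per macrophage cannot be told apart.

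**Figure D1:**
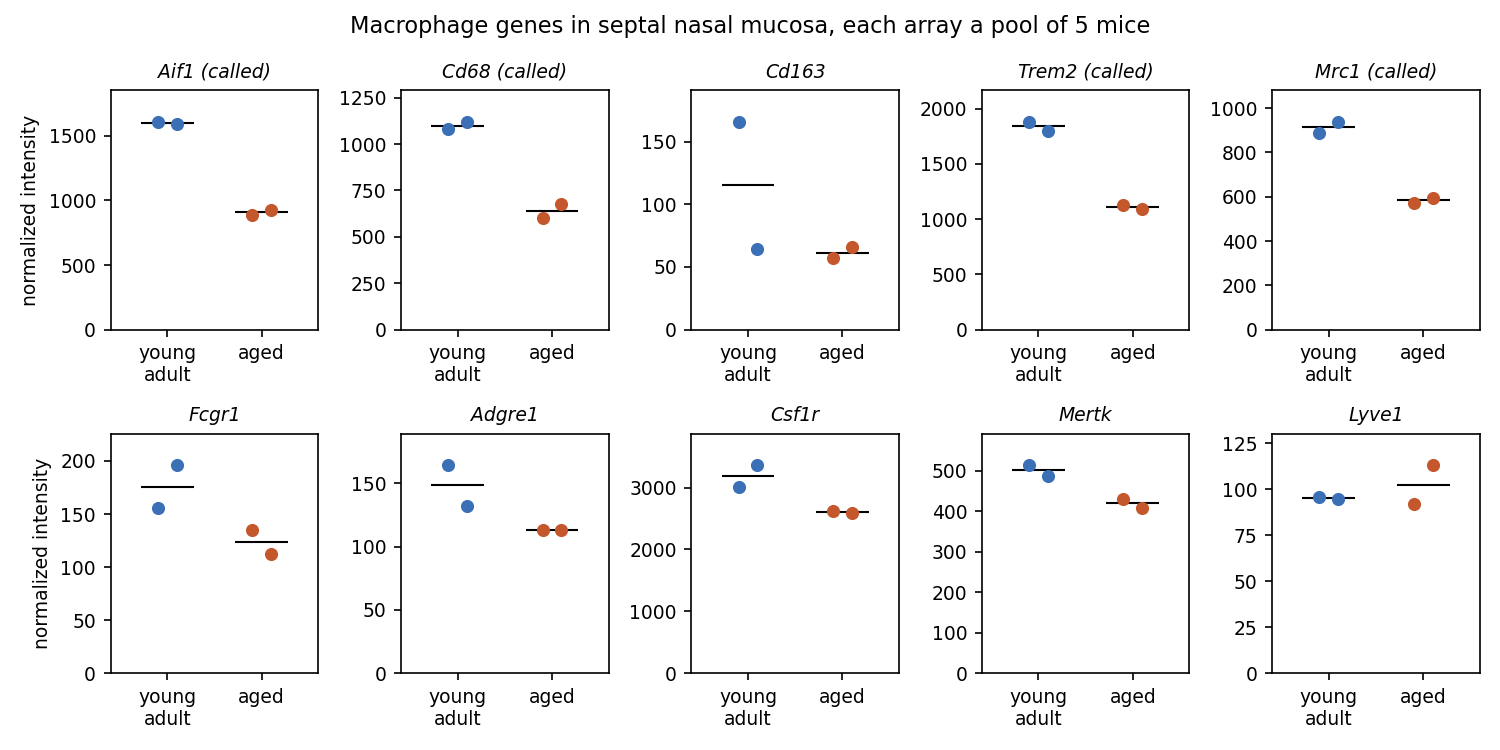
Normalized intensity (vertical axis, linear, starting at 0 and scaled for each gene) of the 10 macrophage genes on the 2 young adult (blue) and 2 aged (orange) arrays; each point is a pool of 5 mice and each line the mean of an age. The ages do not overlap in 8 genes, the exceptions being *Cd163*, where a single young adult array stands high, and *Lyve1*.

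For any gene taken alone, the smallest two-sided p that an exact permutation test reaches with 2 arrays per age is 0.333. The calls therefore rest on the t model of limma. Its spread combines that of each gene (2 residual degrees of freedom) with a spread shared across genes (1.38 prior degrees of freedom). When any of the 4 arrays was left out, 0 of the 10 genes and 0 of all genes passed the FDR limit in limma, while 4 to 6 of the 10 had an unadjusted P below 0.05, against 3294 to 5291 of all genes. In those fits, where an age with a lone array was taken to vary like the other age, the 4 called genes kept log2 fold changes between -0.86 and -0.61.

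*Aif1* encodes IBA1, a calcium- and actin-binding protein used to stain macrophages and microglia. Its normalized intensity was 1609 and 1588 in the young adult pools and 889 and 924 in the aged pools. The arrays of an age lay close together and the ages were well apart. Its level fell by 43.3%, with a log2 fold change of -0.82 (SE 0.077, limma FDR 0.178).

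*Cd68* encodes a heavily glycosylated protein of the endosomes and lysosomes of macrophages. It read 1079 and 1120 in young adult mice and 604 and 675 in aged mice, again without overlap. The log2 fold change was -0.78 (SE 0.098, limma FDR 0.201), and its 2 probes gave -0.82 and -0.75.

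*Mrc1*, the mannose receptor CD206, binds sugars on microbes and on the body's own glycoproteins and is also made by some endothelial cells. Its intensity was 888 and 939 on the young adult arrays against 574 and 593 on the aged arrays. Both aged arrays were below both young adult arrays by more than the spread within an age, and the log2 fold change was -0.65 (SE 0.082, limma FDR 0.201).

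*Trem2* encodes a lipid-sensing receptor that signals through the adaptor TYROBP. It read 1881 and 1799 in young adult mice and 1127 and 1087 in aged mice. The log2 fold change was -0.73 (SE 0.080, limma FDR 0.187), and the ages did not overlap.

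The upstream sequences of these 4 genes are shown because they were the called genes and moved in the same direction. Each run holds the 250 bases before the RefSeq gene start, 5′ to 3′ on the strand of the gene, in build GRCm38.p6. The windows are chr17:35176053-35176302 on the minus strand for *Aif1*, chr11:69666171-69666420 on the minus strand for *Cd68*, chr2:14229164-14229413 on the plus strand for *Mrc1* and chr17:48346151-48346400 on the plus strand for *Trem2*. Capitals mark GAGGAA or, on the other strand, TTCCTC, the purine-rich core bound by PU.1, the transcription factor that specifies the macrophage lineage.
Aif1: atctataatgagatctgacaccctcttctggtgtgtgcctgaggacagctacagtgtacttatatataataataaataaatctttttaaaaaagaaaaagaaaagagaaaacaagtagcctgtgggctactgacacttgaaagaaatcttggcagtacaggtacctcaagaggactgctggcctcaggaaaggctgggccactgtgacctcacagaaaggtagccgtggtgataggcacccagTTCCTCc
Cd68: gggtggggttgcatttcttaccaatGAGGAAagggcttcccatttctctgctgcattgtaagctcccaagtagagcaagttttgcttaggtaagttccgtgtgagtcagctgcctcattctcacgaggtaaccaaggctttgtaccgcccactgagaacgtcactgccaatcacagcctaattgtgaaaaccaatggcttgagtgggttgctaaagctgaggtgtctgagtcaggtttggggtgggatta
Mrc1: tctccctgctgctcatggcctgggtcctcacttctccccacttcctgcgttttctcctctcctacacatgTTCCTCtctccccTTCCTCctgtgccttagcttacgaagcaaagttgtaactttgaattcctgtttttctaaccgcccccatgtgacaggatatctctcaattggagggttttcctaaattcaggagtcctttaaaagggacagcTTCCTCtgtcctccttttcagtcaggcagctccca
Trem2: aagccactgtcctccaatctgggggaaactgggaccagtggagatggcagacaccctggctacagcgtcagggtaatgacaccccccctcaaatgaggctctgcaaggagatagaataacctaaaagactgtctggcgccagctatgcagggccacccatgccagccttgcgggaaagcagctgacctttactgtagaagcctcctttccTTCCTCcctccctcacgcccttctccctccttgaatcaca

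The core began 7 bases before the start of *Aif1*, 225 before that of *Cd68* and 40 before that of *Trem2*, while *Mrc1* had 3 copies, at 180, 167 and 35. Promoters of 7 of the 10 genes were searched, and 5 of these held the core, the fifth being *Fcgr1* at 55 bases. Those of *Adgre1*, *Csf1r* and *Lyve1* were not searched, so this is not a share of all 10 genes. *Cd163* and *Mertk* held none in this window. Among all 32851 promoters of the table, 7639 (23.3%) held it. A match of these letters is a description and not evidence of binding.

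*Adgre1*, the gene of the classical mouse macrophage antigen F4/80, read 164 and 132 in young adult mice and 113 on both aged arrays. The ages did not overlap, but the log2 fold change of -0.38 (SE 0.14) did not pass the limit (limma FDR 0.412). This value averages a pair of unlike probes. The brighter probe read 812 and 921 against 587 and 598, a log2 fold change of -0.55, while the dimmer was not well above background on any array. Taking the most intense probe of each gene called *Adgre1* lower, with a limma FDR of 0.229.

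*Csf1r* encodes the receptor for CSF1 and IL-34, on which macrophage survival depends. It read 3006 and 3363 in young adult mice and 2618 and 2584 in aged mice. The ages did not overlap, and the log2 fold change of -0.29 (SE 0.097) was not called (limma FDR 0.379). Its probes disagreed. The brighter probe read 9629 and 10098 in young adult mice against 6390 and 6325 in aged mice (log2 fold change -0.63), whereas the dimmer read 939 and 1120 against 1073 and 1056 (0.054). With the most intense probe of each gene, *Csf1r* was called lower at a limma FDR of 0.180. The array files give no probe sequence, so the transcripts that each probe detects were not compared.

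Of the ligands of this receptor, *Csf1* fell from 431 and 428 to 304 and 326, a log2 fold change of -0.45 (limma FDR 0.246). *Il34* read 429 and 422 in young adult mice and 392 on both aged arrays, with a log2 fold change of -0.12 that was not called (limma FDR 0.588). Both ligands were thus below their young adult values on both aged arrays, and 1 of the 2 passed the test.

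**Figure D2:**
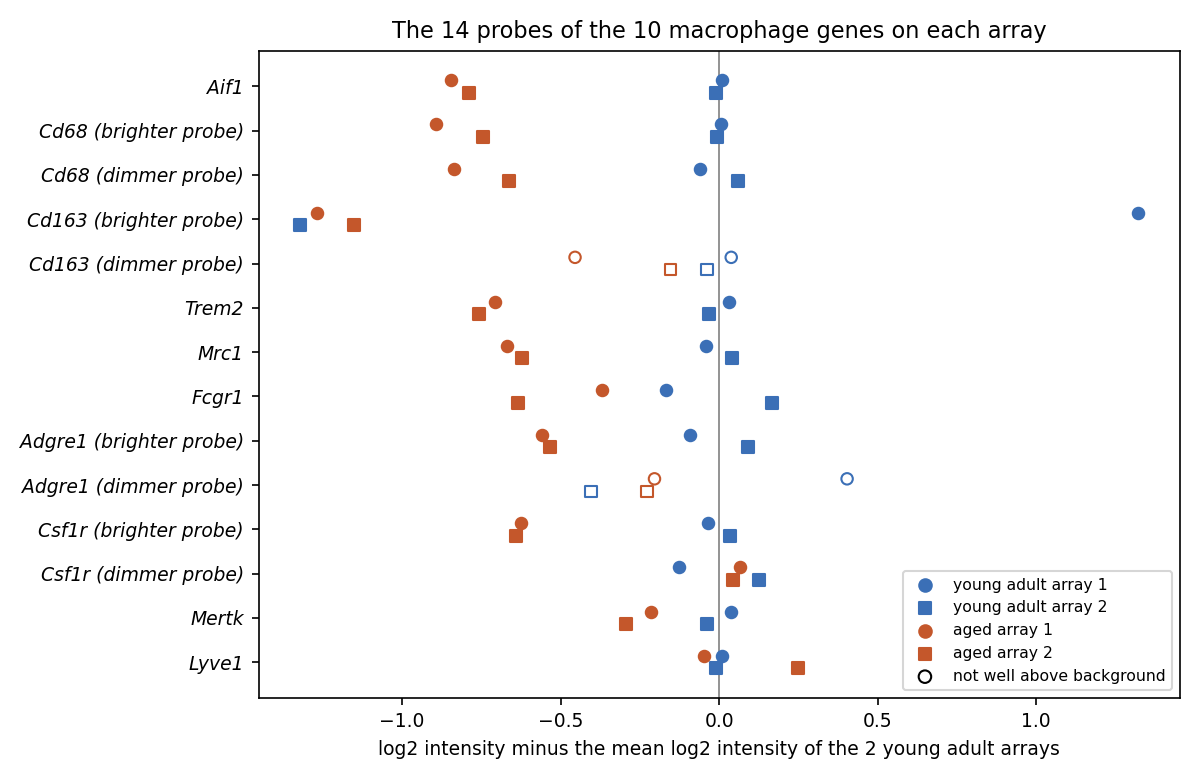
Log2 intensity of each of the 14 probes minus the mean log2 intensity of the 2 young adult arrays (horizontal axis), for young adult (blue) and aged (orange) arrays; circles are array 1, squares array 2, and open symbols are not well above background on that array. The brighter probes of *Adgre1* and *Csf1r* lie lower in aged mice than their dimmer probes, and the brighter *Cd163* probe is high on young adult array 1 alone.

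*Cd163* encodes the receptor for hemoglobin bound to haptoglobin. It read 166 and 64.6 in young adult mice and 57.0 and 65.9 in aged mice, so the ages overlapped. The log2 fold change of -0.76 had an SE of 0.53 (limma FDR 0.619). A single probe on a single array set this value, since the brighter probe read 1057 on young adult array 1 and 169 on young adult array 2, against 176 and 191 on the aged arrays. That spot was 6.01 times the median of the same probe on the other 3 arrays and carried no outlier mark, and the dimmer probe was not well above background on any array. Without young adult array 1 the log2 fold change was -0.081, and without young adult array 2 it was -1.43.

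*Lyve1* encodes a hyaluronan receptor shared by a subset of tissue macrophages and lymphatic endothelium. It was the exception among the 10 genes in direction, reading 95.8 and 94.4 in young adult mice and 91.9 and 113 in aged mice. The ages overlapped, and the log2 fold change of 0.10 (SE 0.14, limma FDR 0.789) turned to -0.049 without aged array 2.

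*Fcgr1* encodes CD64, the high-affinity receptor for IgG. It read 155 and 196 in young adult mice and 135 and 112 in aged mice. These did not overlap, but the arrays of an age were far enough apart that the log2 fold change of -0.50 (SE 0.18) was not called (limma FDR 0.401). Of the other Fc genes, *Fcer1g*, the signalling chain of several Fc receptors, fell from 2497 and 2569 to 1405 and 1556, a log2 fold change of -0.78 (limma FDR 0.196). The remaining 3 receptor genes on that list, *Fcgr2b*, *Fcgr3* and *Fcgr4*, had log2 fold changes of -0.023, -0.14 and -0.37 and were not called.

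*Mertk* encodes a tyrosine kinase receptor that recognizes phosphatidylserine on dying cells through bridging proteins. It read 513 and 487 in young adult mice and 431 and 408 in aged mice, without overlap, and its log2 fold change of -0.26 (SE 0.085) was not called (limma FDR 0.378). None of its 4 relatives and ligands was called either, with values in both directions. The receptor *Axl* had a log2 fold change of -0.26 (limma FDR 0.393) and the receptor *Tyro3* 0.37 (limma FDR 0.292). The bridging proteins *Gas6* and *Pros1* had log2 fold changes of -0.095 and 0.24. Complement C1q, which macrophages secrete and which also tags dying cells, had lower values in all 3 chains. *C1qc* fell, with a log2 fold change of -0.43 (limma FDR 0.238), while *C1qa* (-0.24) and *C1qb* (-0.16) were not called.

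All 9 genes listed as partners or targets of TREM2 had lower means in aged mice, and 5 were called. *Tyrobp*, the adaptor of TREM2, fell from 3907 and 3789 to 2427 and 2327, a log2 fold change of -0.69 (limma FDR 0.189). *Spp1*, the secreted phosphoprotein osteopontin, fell from 8866 and 8793 to 3516 and 3531, a log2 fold change of -1.33 (limma FDR 0.168). *Lpl*, lipoprotein lipase, fell with a log2 fold change of -0.70 (limma FDR 0.206). *Syk* (-0.44) and *Gpnmb* (-0.52) were the other called genes. *Apoe*, the lipid carrier, was not called at -0.19. The median of this list was -0.44.

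Among receptors for scavenging and uptake, 12 of 13 listed genes were measured, of which 2 fell and 0 rose. *Stab1* and *Stab2*, the stabilins, which are also made by sinusoidal endothelium, had log2 fold changes of -0.63 and -0.58 (limma FDR 0.232 and 0.248). The list median was -0.14. Of 13 other genes of resident macrophages, 3 fell and 1 rose. The median of this list was -0.068, and 5 of the 13 genes had higher values in aged mice. *Cd209f*, a lectin, fell by 0.76 on the log2 scale, *Pf4*, a chemokine shared with platelets, by 0.53, and *Slc40a1*, the iron exporter ferroportin, by 0.43. *Hmox1*, heme oxygenase, rose from 3708 and 3932 to 5749 and 5611, a log2 fold change of 0.57 (limma FDR 0.209).

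Of 13 lysosomal genes, 0 passed the limma criteria in either direction, with a median log2 fold change of -0.13 and all 13 detected on every array. These are values of whole mucosa, and the part of macrophages in them was not tested. Of 10 transcription factors of the macrophage lineage, 2 fell. *Maf* had a log2 fold change of -0.59 (limma FDR 0.201) and *Irf8* -0.49 (limma FDR 0.233). *Spi1*, which encodes PU.1, read 47.0 and 44.9 in young adult mice and 43.9 and 43.7 in aged mice and was well above background on 1 of the 4 arrays.

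Monocyte genes, which mark the blood cells that replenish many tissue macrophages, moved in both directions. Of 13 genes, 4 fell and 1 rose. *Cx3cr1*, the fractalkine receptor that many tissue macrophages also keep, fell from 497 and 475 to 259 and 247, a log2 fold change of -0.94 (limma FDR 0.178). *Ccr2*, the receptor through which monocytes leave the bone marrow, fell by 0.87 on the log2 scale (limma FDR 0.228). *Chil3* rose instead, from 746 and 724 to 6271 and 6775, a log2 fold change of 3.15 (limma FDR 0.126).

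Of 8 genes of alternative activation, 2 rose and 0 fell, and 4 of the 8 were well above background on all 4 arrays. *Chil4* rose from 240 and 230 to 3315 and 3200, a log2 fold change of 3.79 (limma FDR 0.0997). *Chil3* and *Chil4* encode the chitinase-like proteins Ym1 and Ym2, are close copies of each other and are also made by airway epithelium. Whether their probes detect each other's transcript was not tested. *Ccl17*, a chemokine for T cells, rose by a log2 fold change of 0.64 (limma FDR 0.232). Of 9 genes of inflammatory activation, only *Il6* passed the criteria (limma FDR 0.178). Its brighter probe read 44.9 and 46.6 in young adult mice, well above background on 1 of the arrays, and 156 and 182 in aged mice. The dimmer probe stayed near background in both young adult pools, so no fold is given.

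Over all 100 genes measured in these related lists, 19 were called lower and 5 higher, against 2.33% and 1.65% of all genes tested. The median log2 fold change was -0.14, against 0.0093 over all genes.

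**Figure D3:**
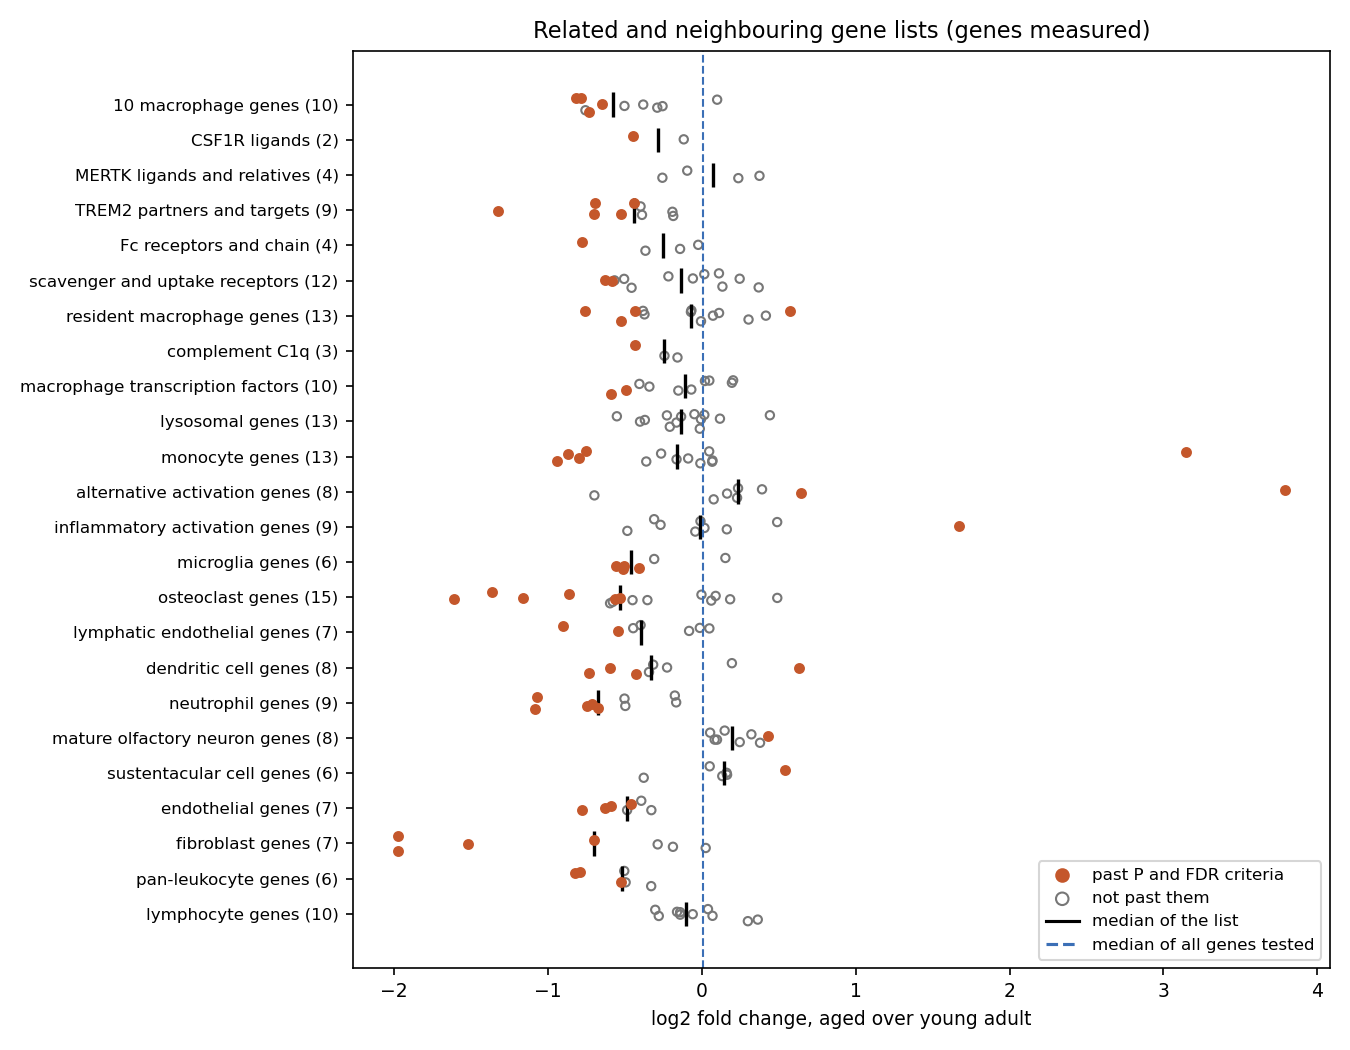
Log2 fold change, aged over young adult (horizontal axis), of each gene in the macrophage set, the related lists and the lists of neighbouring cell types, with the number of genes measured in brackets; filled points passed P below 0.05 and FDR below 0.25, black bars are list medians and the dashed line is the median of all genes tested. The 10 macrophage genes have a median of -0.57, the osteoclast genes -0.53, the neutrophil genes -0.67 and the mature olfactory neuron genes 0.20.

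Genes of several other cell types moved in the same direction as the macrophage genes. Of the 89 genes measured in the lists of other cell types, 31 were called lower and 3 higher, against 2.33% and 1.65% of all genes tested. Osteoclasts are bone-resorbing cells of the same lineage that also make CSF1R, TREM2, TYROBP and CD68. Of 15 osteoclast genes 6 fell and 0 rose, and the intensities summed over the list were 78571 and 76818 in young adult mice against 44909 and 44583 in aged mice. *Acp5* made up 41.7% of this sum, and without it the sums were 39994 and 38547 against 32174 and 32139. *Acp5*, the phosphatase TRAP, had a log2 fold change of -1.61 (limma FDR 0.168), *Ctsk*, the collagen-degrading cathepsin K, -1.36, and *Mmp9*, a gelatinase, -1.16. Another 4 genes of the list had higher means in aged mice and were not called, among them *Car2*, carbonic anhydrase, at 0.49 (limma FDR 0.264) and *Nfatc1*, a transcription factor, at 0.18. The calcitonin receptor *Calcr*, which defines mature osteoclasts, read 43.2 and 39.4 in young adult mice and 35.1 and 48.4 in aged mice, where 1 array did not have it well above background. The summed intensity of the 10 macrophage genes was 9559 and 9783 in young adult mice and 6640 and 6676 in aged mice. *Csf1r*, which was not called, contributed 3006 and 3363 to the young adult sums and 2618 and 2584 to the aged sums. The part of osteoclasts in the values of the macrophage genes, or of *Spp1* and the other partners and targets of TREM2, was not tested.

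Of 6 genes shared by all leukocytes, 3 fell and 0 rose, and the summed intensities were 8502 and 8315 against 5350 and 5267. *Rac2*, a GTPase of blood cells, had a log2 fold change of -0.82 (limma FDR 0.201), *Cd52*, a surface glycoprotein, -0.79, and *Coro1a*, an actin-binding protein, -0.53. *Ptprc*, which encodes the leukocyte antigen CD45, had a log2 fold change of -0.50 and was not called (limma FDR 0.278). Of 9 neutrophil genes 5 fell, among them *S100a9* and *S100a8*, the subunits of calprotectin, at -1.08 and -1.07, and *Retnlg* at -0.75. *Retnlg* was well above background on only 1 of the 2 aged arrays. *Ltf*, which encodes lactoferrin and is also secreted by nasal glands, made up 95.5% of the summed intensity of the list. Without it the sums were 12704 and 13366 in young adult mice and 6875 and 6896 in aged mice. Of 10 lymphocyte genes, 0 were called, with a median of -0.10. *Jchain*, a gene of plasma cells, made up 85.9% of their summed intensity, and the sums without it were 1027 and 1393 against 1154 and 1110. The part of other leukocytes in the macrophage values was not tested.

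Of 8 dendritic cell genes, 3 fell and 1 rose, and the sums were 894 and 848 in young adult mice against 737 and 782 in aged mice. *Itgax*, the integrin CD11c that some macrophages share, had a log2 fold change of -0.73 (limma FDR 0.193), and *Cd209a*, a lectin, -0.43. *Clec9a*, a receptor for dead cells, was the third of those that fell, but neither of its probes was well above background on an aged array, and each was on only 1 young adult array, so no fold is given. *Ccr7*, the receptor for migration to lymph nodes, rose by 0.63 on the log2 scale. Of 6 microglia genes, 4 fell, among them *Olfml3* at -0.51 and *P2ry12* at -0.51, the latter being well above background on 1 of the 2 aged arrays. *Gpr34* fell by 0.56 on the log2 scale as the mean of a pair of probes, of which the dimmer (-0.79) was not well above background on either aged array and the brighter gave -0.33. The sums over the list were 4282 and 4357 against 3179 and 3865. *Siglech*, which was not called, made up 44.9% of this sum and read 1926 and 1936 against 1256 and 1932. Without it the sums were 2356 and 2422 against 1923 and 1933.

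Outside the leukocytes, 4 of 7 fibroblast genes fell, with *Col1a1* at -1.98, *Col3a1* at -1.97 and *Col1a2* at -1.52 (fibrillar collagen chains), and the sums were 252537 and 228027 against 128734 and 121138. The 3 fibroblast genes not called were *Pdgfra* at -0.29, *Dcn* at -0.19 and *Thy1* at 0.025. Of 7 endothelial genes 4 fell, with *Emcn* at -0.78, *Vwf* at -0.63 and *Kdr* at -0.59, and the sums were 19307 and 18960 against 12961 and 13063. Of 7 lymphatic endothelial genes 2 fell, *Sox18* at -0.90 and *Ccl21a* at -0.55, and the sums were 25854 and 26559 against 20218 and 19907. *Ccl21a* made up 62.2% of this sum, and without it the sums were 9282 and 8951 against 8503 and 8225. Of the 7 genes, 6 had lower values in aged mice, but *Pdpn* (-0.013) and *Prox1* (0.049) were not called and lay near 0. Of 8 mature olfactory neuron genes only *Stoml3* passed, rising by 0.43, and of 6 sustentacular genes only *Cyp1a2*, rising by 0.54. The sums were 573690 and 564955 against 626185 and 634148 for the neurons, and 552548 and 544194 against 549989 and 541733 for the sustentacular cells. The share of supporting tissue in each pool was not measured, and its part in the macrophage values was not tested.

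Of the spots other than controls, 68.1 and 76.8% were well above background in young adult mice, compared with 63.1 and 72.7% in aged mice, array 1 being the lower in both ages. Array 1 of each age lay on the same slide and the other arrays on slides of their own. Within the shared slide the log2 fold changes were -0.86 for *Aif1*, -0.84 for *Cd68*, -0.63 for *Mrc1* and -0.74 for *Trem2*. Between the remaining arrays they were -0.78, -0.73, -0.66 and -0.73 in the same order. The 4 called genes thus had nearly the same values in both pairs of arrays, as did *Mertk*, at -0.25 and -0.26. A call favors genes with little spread within an age, and little spread makes the pairs alike. The likeness is therefore no separate support for the calls. *Csf1r* had -0.20 within the slide and -0.38 between the other arrays. *Fcgr1*, at -0.20 and -0.80, and *Adgre1*, at -0.54 and -0.22, kept their direction but not their size. *Cd163* had -1.54 within the slide and 0.027 between the others, and *Lyve1* had -0.060 and 0.26.

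**Figure D4:**
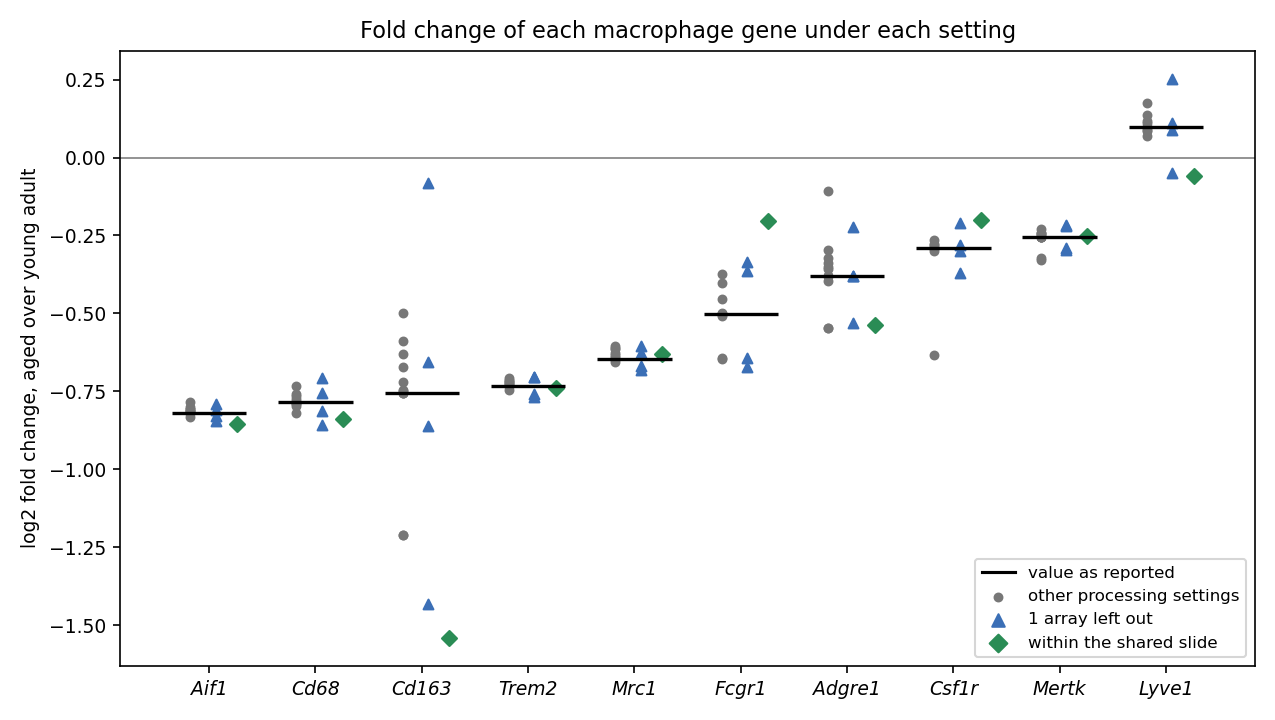
Log2 fold change, aged over young adult (vertical axis), of each macrophage gene as reported (black bar), under other processing settings (gray), with 1 array left out (blue triangles) and within the slide shared by array 1 of each age (green diamond). *Aif1*, *Cd68*, *Trem2* and *Mrc1* stay between -0.86 and -0.60, while *Cd163* runs from -1.54 to -0.081 and *Lyve1* crosses 0.

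*Aif1*, *Cd68*, *Mrc1* and *Trem2* remained called under all 11 other settings of background correction, normalization, spot and probe choice and intensity trend, while between 0 and 4 further genes joined them. Leaving out dim probes added *Adgre1*, *Csf1r*, *Fcgr1* and *Mertk*, for 8 of 10 called lower, while the share of all genes called lower went from 2.33 to 12.6%. An intensity trend in eBayes added *Csf1r*, *Fcgr1* and *Mertk*, for 7, with 7.71% of all genes called lower. *Cd163* and *Lyve1* were not called under any of these settings.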

How the data were processed

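RNA of septal nasal mucosa was measured on 4 arrays. For each spot the authors deposited a median pixel intensity, the intensity of the local background and quality marks, extracted with Feature Extraction 11.0.1.1 without normalization between arrays. The submitters' notes also name R 3.2.1. The series value table repeated the processed intensity and was not used on its own.

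Background was corrected by normexp (offset 0, limma 3.58.1, R 4.3.3), and control spots and spots marked as outliers (88 to 118 per array) were left out. Spots of a probe were averaged, arrays were quantile normalized on the log2 scale, and a gene with several probes took their mean log2 value. Accessions of 32994 of the 56605 probes matched a RefSeq table (GRCm38.p6), whose promoters were also used. The array design names another build, so no coordinates were given for probes, and those of the promoters are of the RefSeq build. After 12 genes without a value on every array were left out, lmFit and eBayes compared the ages over 45604 genes without covariates (P below 0.05, FDR below 0.25; 2 residual and 1.38 prior degrees of freedom). The fit was tested on simulated data. The number of arrays limits the precision.

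The macrophage genes, lists and alternatives were chosen with earlier results of these data known, and no list was tested as a set. The genes named are all 10 macrophage genes, every ligand or relative of CSF1R and MERTK, every C1q chain, and up to 3 called genes per list and direction with the largest changes, except 1 gene that is not reported here. Others (*Fcgr2b*, *Fcgr3*, *Fcgr4*, *Syk*, *Gpnmb*, *Apoe*, *Spi1*, *Calcr*, *Car2*, *Nfatc1*, *Ltf*, *Jchain*, *Siglech*, *Ptprc*, *Prox1*, *Pdpn*, *Pdgfra*, *Dcn*, *Thy1*) were named after their values were seen. Of the list genes chosen by the rule, 17 had several probes, and in 0 of these did the probes differ in direction. The alternatives were offsets of 16 and 50, no background correction, the processed intensity, scaling to the 75th percentile, cyclic loess, outlier spots kept, dim probes left out, the most intense probe, an intensity trend, the replicate number as a block, the shared slide alone, each array left out, a limit of FDR 0.05, and limits on expression (100) and fold change (1.5).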

Additional observations from a re-analysis of the deposited data

How the results depend on the processing

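The reported limma counts were 4 of the 10 macrophage genes, 24 of the 100 related genes, 34 of the 89 genes of other cell types and 1817 of all genes. With each array left out in turn, all 4 counts ranged from 0 to 0, with 4 to 6, 28 to 31, 37 to 40 and 3294 to 5291 genes at an unadjusted P below 0.05. With the replicate number as a block they were again 0, 0, 0 and 0 (4, 38, 48 and 5197 unadjusted). The numbers are no pairing of mice: same-numbered arrays shared only a number and, for array 1, a slide, and their deviations from the age means correlated at -0.078. At an FDR limit of 0.05 the counts were 0, 0, 0 and 0, with 5990 of all genes at an unadjusted P below 0.05. Leaving out dim probes gave 8, 48, 52 and 7151 genes (of 29495 tested), and an intensity trend gave 7 macrophage genes, 48 related genes and 7130 of all genes. An offset of 50 gave 38 related genes and 4582 of all genes, an offset of 16 gave 2989 of all genes, no background correction 4027 and the processed signal with quantile normalization 4372. The limits on expression and fold change left 14 related genes, 20 genes of other cell types and 895 of all genes. The cause of these shifts was not tested. *Lyve1* reversed to -0.060 within the shared slide, and with each array left out it ranged from -0.049 to 0.25, the negative value being that without aged array 2. A count within the slide was not possible with 1 array per age, and the slide as a random block could not be fitted with 4 arrays. For dim probes, signal over background limits the values.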
